A study of Mus musculus with 12 samples.

Results

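The dual-specificity phosphatases described here are 9 genes, Dusp1, Dusp2, Dusp4, Dusp5, Dusp6, Dusp8, Dusp10, Dusp14 and Dusp16, out of 18193 genes named on the array. They were chosen by name, as the probe sets whose only annotated symbol is a member, which gave 13 probe sets for the 9 genes. The probe set with the highest mean signal leads for each gene, and the other probe sets of the same gene serve as a check. All 9 genes had a lead probe set past the filter on low signals.

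Total mouse lung RNA was hybridised to 12 Affymetrix mouse genome arrays, with 3 arrays in each of 4 groups. All mice were male C57BL/6 of 8 to 12 weeks per the labels, and were either wild type (WT) or nmMLCK-/- (here KO), lacking in every cell the long isoform of the myosin light chain kinase gene Mylk, named non-muscle MLCK. Mice of each genotype breathed spontaneously (SB) or received 4 h of mechanical ventilation with large breaths, as a model of ventilator-induced lung injury (VILI). The sample labels give a tidal volume of 40 ml/kg and the series text gives 30 ml/kg, at 65 breaths per min with an end-expiratory pressure of 0 cm H2O. A group ventilated with small breaths is not among the samples, so effects of the tidal volume and of ventilation as such cannot be told apart.

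Mitogen-activated protein kinases (MAPKs), the ERK, JNK and p38 enzymes, are switched on by phosphorylation of a threonine and a tyrosine in their activation loop. Dual-specificity phosphatases remove both phosphates and so switch the kinases off. Many of these phosphatase genes are themselves switched on by the kinases they inhibit, which makes them part of a negative feedback. In lung, MAPKs respond to stretch and to inflammatory mediators.

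The members differ in location and preferred substrate. Dusp1, Dusp2, Dusp4 and Dusp5 encode inducible nuclear enzymes, of which DUSP5 is selective for ERK. Dusp6 encodes a cytoplasmic enzyme selective for ERK. Dusp8, Dusp10 and Dusp16 encode enzymes that prefer JNK and p38, and Dusp14 encodes a small atypical enzyme without the amino-terminal domain by which the others bind MAPKs.

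The 250 bases before the annotated start of 5 members are printed because they hold a searched motif, and because 4 of the 5 genes rose after ventilation. They are RefSeq sequences of GRCm38.p6, read 5′ to 3′ towards the gene, with matched motifs in capitals. The RefSeq table used here held 8 of the 9 members and did not hold Dusp4. The regions are chr17:26508473-26508722 on the minus strand for Dusp1, chr2:127335909-127336158 on the plus strand for Dusp2, chr19:53528895-53529144 on the plus strand for Dusp5, chr7:142095285-142095534 on the minus strand for Dusp8 and chr6:134792629-134792878 on the minus strand for Dusp16.
Dusp1: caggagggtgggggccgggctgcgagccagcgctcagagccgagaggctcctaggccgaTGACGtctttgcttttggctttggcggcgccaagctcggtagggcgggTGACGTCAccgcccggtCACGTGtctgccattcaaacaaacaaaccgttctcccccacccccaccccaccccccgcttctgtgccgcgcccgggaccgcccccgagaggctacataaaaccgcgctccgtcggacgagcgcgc
Dusp2: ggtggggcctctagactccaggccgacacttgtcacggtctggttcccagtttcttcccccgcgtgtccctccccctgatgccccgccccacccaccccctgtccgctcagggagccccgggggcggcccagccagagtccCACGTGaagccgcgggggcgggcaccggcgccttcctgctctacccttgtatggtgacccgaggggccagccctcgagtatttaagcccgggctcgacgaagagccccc
Dusp5: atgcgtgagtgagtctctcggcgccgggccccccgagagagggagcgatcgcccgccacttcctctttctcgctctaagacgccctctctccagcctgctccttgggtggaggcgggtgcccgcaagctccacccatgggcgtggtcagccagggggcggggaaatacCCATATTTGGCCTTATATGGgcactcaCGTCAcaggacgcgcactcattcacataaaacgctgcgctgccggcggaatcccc
Dusp8: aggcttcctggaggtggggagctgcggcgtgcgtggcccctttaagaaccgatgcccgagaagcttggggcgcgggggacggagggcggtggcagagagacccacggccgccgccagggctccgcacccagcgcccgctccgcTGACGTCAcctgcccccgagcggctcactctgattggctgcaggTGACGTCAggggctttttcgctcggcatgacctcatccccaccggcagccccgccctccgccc
Dusp16: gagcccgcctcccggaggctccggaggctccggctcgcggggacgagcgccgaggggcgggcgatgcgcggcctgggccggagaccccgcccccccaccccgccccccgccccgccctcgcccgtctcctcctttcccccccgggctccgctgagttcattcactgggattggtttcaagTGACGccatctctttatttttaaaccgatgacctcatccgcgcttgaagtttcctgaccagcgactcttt

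Each motif was searched on both strands. The cAMP response element (CRE), TGACGTCA, lay at 143 to 136 bases before the start of Dusp1 and at 2 places before Dusp8, 107 to 100 and 63 to 56 bases from the start. Of 32851 promoter windows of the same length, 1.55% held a CRE. The shorter site TGACG, which every CRE contains on both strands, was found before Dusp1, Dusp5, Dusp8 and Dusp16, and in 17.8% of all windows. Dusp1 had a further TGACG at 191 to 187 bases before the start. In Dusp5 it lay 55 to 51 bases and in Dusp16 70 to 66 bases before the start.

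The CArG box, the site of serum response factor, stood in a pair before Dusp5, at 82 to 73 and 72 to 63 bases from the start, and in 1.47% of all windows. The E-box CACGTG was found in Dusp1 and Dusp2, and in 6.02% of all windows. The AP-1 letters TGANTCA (6.75% of all windows) and the NF-kB consensus (3.90%) had no match in the 8 member windows. The windows of Dusp6, Dusp10 and Dusp14 held none of the searched letters. The share of all windows that hold any of the searched motifs was not counted.

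The arrays were alike over all probe sets, with correlations of 0.981 to 0.998. The lead Mylk probe set read 12.98 to 13.05 in WT-SB, 12.77 to 12.95 in WT-VILI, 12.71 to 12.83 in KO-SB and 12.68 to 12.77 in KO-VILI. The isoform it reads is not given, so it does not check the genotype labels. WT-SB replicate 3 and KO-SB replicate 2 stood apart: 10 glucocorticoid response genes, centred on their means over the arrays, had medians of -1.60 and -1.21 there, against 0.06 to 0.47 on the other 10 arrays. For neutrophil markers centred the same way, the median was 1.14 in WT-SB replicate 3, -2.17 to -1.27 in the other 5 SB arrays and 0.84 to 1.71 in the VILI arrays.

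In WT lungs, 5 of the 9 phosphatase genes rose after ventilation and none fell. They were Dusp16, Dusp8, Dusp5, Dusp2 and Dusp4, with rises of 1.81-fold to 2.25-fold. Dusp1, Dusp6, Dusp10 and Dusp14 did not pass the test. Of all 12309 genes tested, 6.34% rose, 9.03% fell and 15.4% changed in either direction, by limma with a Benjamini-Hochberg adjusted p under 0.05. The median log2 difference was 0.86 over the 9 members and -0.05 over all genes. In KO lungs, 4 of the 9 rose and none fell, against 8.12% of all genes that rose, 12.6% that fell and 20.7% that changed. The 4 were Dusp2, Dusp5, Dusp8 and Dusp16, at 1.99-fold to 2.39-fold, and the medians were 0.30 for the members and -0.05 for all genes. No VILI array was as low as any SB array for Dusp4, Dusp5, Dusp8 and Dusp16 in WT, which held for 15.5% of all genes, and for Dusp2, Dusp5, Dusp8 and Dusp16 in KO (17.9%). Markers of some resident cell types also moved. All 4 ciliated cell markers fell in WT and 3 of 4 in KO, with median log2 differences of -1.43 and -1.04 and summed linear signals of 5590.2 to 6131.2 in WT-SB, 3109 to 3849 in WT-VILI, 4954.3 to 6488.4 in KO-SB and 3367.7 to 4079.6 in KO-VILI. Of 4 fibroblast markers, Col1a1 and Col3a1 rose in WT (median of the list 0.39, summed signals of 31932 to 36220 in SB and 40039 to 45901 in VILI). In KO Col1a1 rose and Dcn fell (median 0.12, sums of 31333 to 34167 and 31954 to 37209). None of 4 alveolar type 2 or 3 club markers passed in either genotype. In WT, none of 4 alveolar type 1 or 4 smooth muscle markers passed, and 1 of 6 endothelial markers rose. In KO, 1 alveolar type 1 and 1 endothelial marker rose, and 1 endothelial and 1 smooth muscle marker fell. The part of these markers in the phosphatase values was not tested. The series text gives 3 animals a group without tying arrays to animals, so the p-values measure only the spread between these arrays, which may be in part technical.

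**Figure D1:**
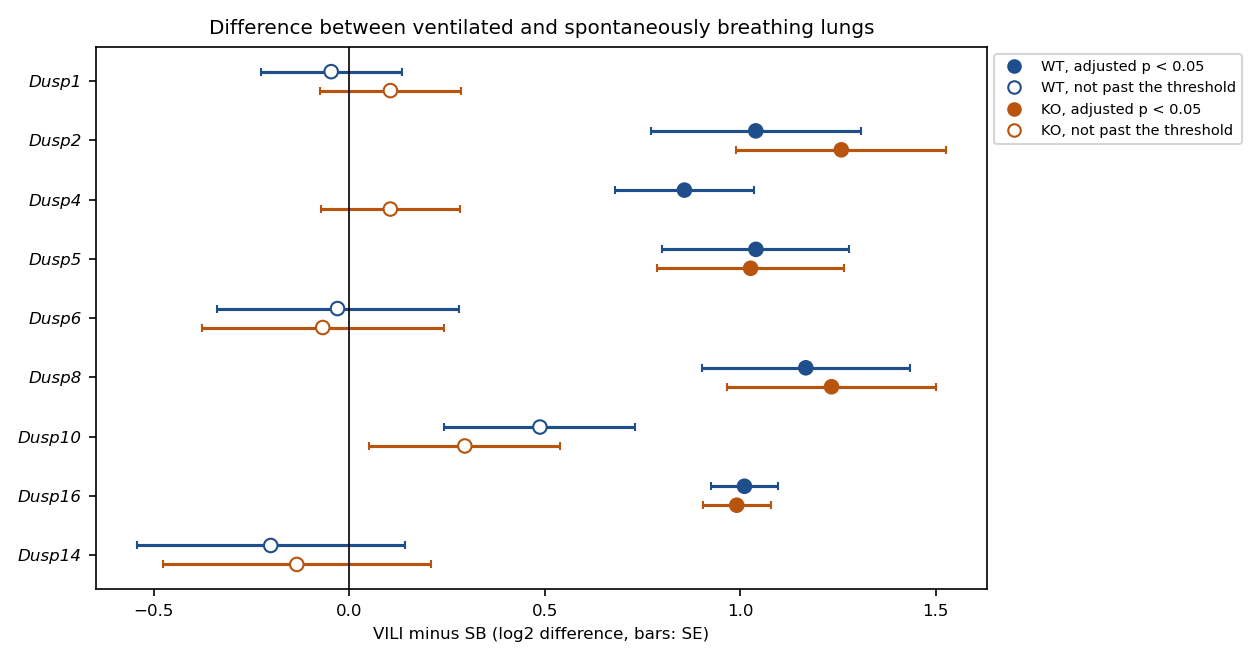
Log2 difference between VILI and SB for the lead probe set of each gene, in WT (blue) and KO (orange), with standard errors as bars and filled points where the limma adjusted p is under 0.05. Dusp2, Dusp5, Dusp8 and Dusp16 lie between 0.99 and 1.26 in both genotypes, while Dusp4 lies at 0.86 in WT and 0.11 in KO.

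Dusp16, which encodes a JNK and p38 phosphatase, had the smallest standard error of the 9 members. Its log2 signals were 10.95, 10.99 and 10.94 in WT-SB and 12.01, 12.04 and 11.86 in WT-VILI. They were 10.84, 10.70 and 10.73 in KO-SB and 11.83, 11.79 and 11.62 in KO-VILI. Every VILI array of either genotype was above every SB array. The share of all genes separated in this way, here and for Dusp8 and Dusp5 below, was not counted. The VILI minus SB difference was 1.01 ± 0.09 (SE, n = 3 arrays a group) in WT, a 2.02-fold rise (limma adjusted p = 0.000218), and 0.99 ± 0.09 in KO, a 1.99-fold rise (limma adjusted p = 2.00e-04).

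The second Dusp16 probe set gave the same direction on a lower signal. It read 8.28, 8.14 and 8.21 in WT-SB, 9.08, 9.22 and 9.34 in WT-VILI, 8.37, 7.70 and 7.96 in KO-SB, and 8.90, 9.36 and 8.96 in KO-VILI. Again no VILI array was as low as any SB array. In a separate fit of all probe sets past the filter, the differences were 1.00 in WT and 1.06 in KO (limma adjusted p = 0.0073 and 0.0051). The difference between the responses, KO minus WT, was -0.02 for the lead probe set, with a 95% interval of -0.29 to 0.25.

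Dusp8 encodes a phosphatase that acts on JNK and p38 and is best known from brain and heart. Its lead probe set read 8.21, 8.67 and 9.21 in WT-SB and 10.13, 9.63 and 9.84 in WT-VILI. The KO arrays read 7.95, 8.50 and 8.27 under SB and 9.65, 9.72 and 9.05 under VILI. Within each genotype the groups did not overlap, but WT-SB replicate 3, at 9.21, was above the lowest KO-VILI array. The rise was 1.17 ± 0.27 in WT (2.25-fold, limma adjusted p = 0.0170) and 1.23 ± 0.27 in KO (2.35-fold, limma adjusted p = 0.0118).

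The WT call of Dusp8 was lost without WT-SB replicate 1 (limma adjusted p = 0.0613) and without WT-VILI replicate 1 (0.0619). A second probe set read 7.22, 7.36 and 8.13 in WT-SB, 8.83, 8.91 and 8.58 in WT-VILI, 7.30, 7.79 and 7.28 in KO-SB, and 8.54, 8.72 and 8.22 in KO-VILI. It separated VILI from SB across all 12 arrays. Its differences, in the fit of all probe sets past the filter, were 1.20 and 1.03 (limma adjusted p = 0.0132 and 0.0199). Another, near the filter level of 3.06 with signals of 2.93 to 3.39, gave 0.28 in WT and 0.11 in KO and did not pass in either (limma adjusted p = 0.0755 and 0.436).

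Dusp10, the third member that prefers JNK and p38, did not pass the test in either genotype. It read 5.77, 5.72 and 6.16 in WT-SB and 6.84, 5.86 and 6.43 in WT-VILI, with 5.60, 5.63 and 5.66 in KO-SB and 6.10, 6.17 and 5.51 in KO-VILI. The VILI arrays spread widely: WT-VILI replicate 2 fell among the WT-SB arrays, and KO-VILI replicate 3 was below all 3 KO-SB arrays. The differences were 0.49 ± 0.24 in WT and 0.30 ± 0.24 in KO (limma adjusted p = 0.204 and 0.410). The mean over both genotypes was 0.39 ± 0.17 (limma adjusted p = 0.0995), with a 95% interval of 0.01 to 0.77. It passed without WT-VILI replicate 2 (0.52, limma adjusted p = 0.0254) and without KO-VILI replicate 3 (0.50, limma adjusted p = 0.0442). The second Dusp10 probe set lay under the filter level on every array.

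Dusp2 encodes an inducible nuclear phosphatase first known from activated lymphocytes. Its signals were 4.66, 4.56 and 5.59 in WT-SB and 6.35, 5.59 and 5.98 in WT-VILI. In KO they were 4.70, 5.03 and 4.67 under SB and 6.05, 5.93 and 6.20 under VILI. The KO groups did not overlap. In WT the highest SB array, replicate 3, was level with the lowest VILI array, replicate 2. The rise was 1.04 ± 0.27 in WT (2.06-fold, limma adjusted p = 0.0275) and 1.26 ± 0.27 in KO (2.39-fold, limma adjusted p = 0.0110).

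In WT the Dusp2 call was lost in 4 of 12 fits that left out 1 array: without WT-SB replicate 1 (limma adjusted p = 0.0982) or 2 (0.0689), and without WT-VILI replicate 1 (0.0948) or 3 (0.0756). It was also lost without the filter on low signals (limma adjusted p = 0.0517). Of 9 neutrophil markers 8 were tested, and their summed linear signal was 6204.9 to 42298 in WT-SB, 30350 to 50413 in WT-VILI, 4110 to 5337.3 in KO-SB and 34924 to 57561 in KO-VILI. Of the 8, 3 rose in WT and all 8 in KO, with median log2 differences of 1.69 and 3.26. WT-SB replicate 3, the SB array with the highest Dusp2 signal, had the highest neutrophil sum of the SB arrays. Its sums of T and NK cell (2739.4) and B cell markers (2521.1) were also the highest among them. Among the KO-SB arrays, replicate 2 had the highest Dusp2 signal (5.03), with the lowest neutrophil sum (4110). Its T and NK cell (1582.4) and B cell (1005.4) sums were the highest of that group. By the median of the centred T and NK cell markers, however, KO-SB replicate 1 (-0.10) was above replicate 2 (-0.25). The macrophage sum of the SB arrays was highest in KO-SB replicate 3 (26222).

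Of 9 T and NK cell markers 5 were tested, with summed signals of 1148.6 to 2739.4 in WT-SB, 1937.9 to 3236.7 in WT-VILI, 1359.4 to 1582.4 in KO-SB and 1654.9 to 2238.3 in KO-VILI. None passed in WT and 1, Cd3e, in KO, with median log2 differences of 0.70 and 0.76. The lowest log2 signal among the neutrophil markers was 1.92, under the filter level, on a KO-SB array, and that among the T and NK cell markers was 3.44. Of 6 macrophage markers 2 rose in WT and none in KO, with median log2 differences of 0.41 and -0.12. None of 3 tested B cell markers passed in either genotype, with medians of -0.03 in WT and 0.79 in KO. The part of leukocyte markers in the rise of Dusp2 was not tested. In lung tissue as a whole, a change in the number of cells of a type and a change in RNA per cell cannot be told apart. Without WT-SB replicate 3 and KO-SB replicate 2, a setting chosen after the arrays were seen, Dusp2 rose by 1.37 in WT and 1.38 in KO (limma adjusted p = 0.00244 and 0.00294).

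Dusp5, whose nuclear product acts on ERK, read 7.70, 7.04 and 7.75 in WT-SB and 8.91, 8.51 and 8.19 in WT-VILI. It read 7.20, 7.35 and 7.76 in KO-SB and 8.55, 8.63 and 8.22 in KO-VILI. All 6 VILI arrays were above all 6 SB arrays. The difference was 1.04 ± 0.24 in WT (2.06-fold, limma adjusted p = 0.0176) and 1.03 ± 0.24 in KO (2.04-fold, limma adjusted p = 0.0159). The WT call was lost without WT-VILI replicate 1 (limma adjusted p = 0.0620). The KO call was lost without KO-SB replicate 2 (0.0530), KO-VILI replicate 1 (0.0508) or KO-VILI replicate 2 (0.0607).

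Dusp4, another inducible nuclear phosphatase, passed the test in WT and not in KO. It read 8.30, 8.08 and 7.82 in WT-SB and 8.98, 9.04 and 8.75 in WT-VILI, against 8.65, 8.08 and 8.29 in KO-SB and 8.68, 8.44 and 8.22 in KO-VILI. The 3 WT-VILI arrays were the highest of the 12, and the KO-SB and KO-VILI arrays overlapped. The share of all genes with the WT-VILI arrays highest was not counted. The means were 8.07 ± 0.24 (SD, n = 3) in WT-SB, 8.93 ± 0.15 in WT-VILI, 8.34 ± 0.29 in KO-SB and 8.45 ± 0.23 in KO-VILI. The VILI minus SB difference was 0.86 ± 0.18 in WT, a 1.81-fold rise (limma adjusted p = 0.0116), which passed in all 12 fits that left out 1 array. In KO it was 0.11 ± 0.18 (limma adjusted p = 0.706).

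The difference of the Dusp4 responses, KO minus WT, was -0.75 ± 0.25, with a 95% interval of -1.31 to -0.19. Its unadjusted limma p was 0.0133 and its adjusted p was 0.902, so a difference between the genotypes did not pass over all genes. Of the 12309 genes, 0% had a called difference of responses by limma, and 5.03% had an unadjusted p under 0.05. The difference stayed below 0 in every fit that left out 1 array, from -0.88 to -0.60.

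Dusp1, the best known immediate early member and a gene that glucocorticoids induce, read 14.76, 14.35 and 14.29 in WT-SB and 14.45, 14.36 and 14.46 in WT-VILI. It read 14.24, 13.67 and 14.19 in KO-SB and 14.37, 14.14 and 13.90 in KO-VILI. SB and VILI arrays overlapped in both genotypes, and the lowest array of all was KO-SB replicate 2, one of those with low glucocorticoid response genes. The other, WT-SB replicate 3, read 14.29, below WT-SB replicate 2 (14.35) and above every KO-SB array (up to 14.24). The VILI minus SB difference was -0.05 ± 0.18 in WT and 0.11 ± 0.18 in KO (limma adjusted p = 0.886 and 0.709), with 95% intervals of -0.45 to 0.35 and -0.30 to 0.51. Without KO-SB replicate 2 the KO value was -0.08. The part of the glucocorticoid response genes in these values was not tested.

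Dusp6, the cytoplasmic ERK phosphatase, read 12.04, 10.50 and 11.82 in WT-SB and 11.46, 11.48 and 11.34 in WT-VILI. In KO it read 11.33, 11.35 and 11.30 under SB and 11.38, 11.25 and 11.14 under VILI. The WT-SB arrays held both the 2 highest and the lowest of the 12 signals, with an SD of 0.83 against 0.02 to 0.12 in the other 3 groups. The VILI minus SB difference was -0.03 ± 0.31 in WT and -0.07 ± 0.31 in KO (limma adjusted p = 0.957 and 0.897). The WT value turned on single WT-SB arrays. It was 0.26 without replicate 1 and 0.15 without replicate 3 (limma adjusted p = 0.607 and 0.811). Without replicate 2 it was -0.51 (limma adjusted p = 0.0127), and the mean over both genotypes was then -0.29 (limma adjusted p = 0.0112).

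Dusp14 was measured at 9.35, 9.46 and 10.04 in WT-SB, 9.80, 9.40 and 9.06 in WT-VILI, 9.02, 10.06 and 8.97 in KO-SB, and 9.58, 9.39 and 8.67 in KO-VILI. The groups overlapped throughout, and the 2 highest signals were those of WT-SB replicate 3 and KO-SB replicate 2, the arrays with low glucocorticoid response genes. The differences were -0.20 ± 0.34 in WT and -0.13 ± 0.34 in KO (limma adjusted p = 0.727 and 0.808). Without both arrays, Dusp14 differed by 0.01 in WT and by 0.22 in KO.

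**Figure D2:**
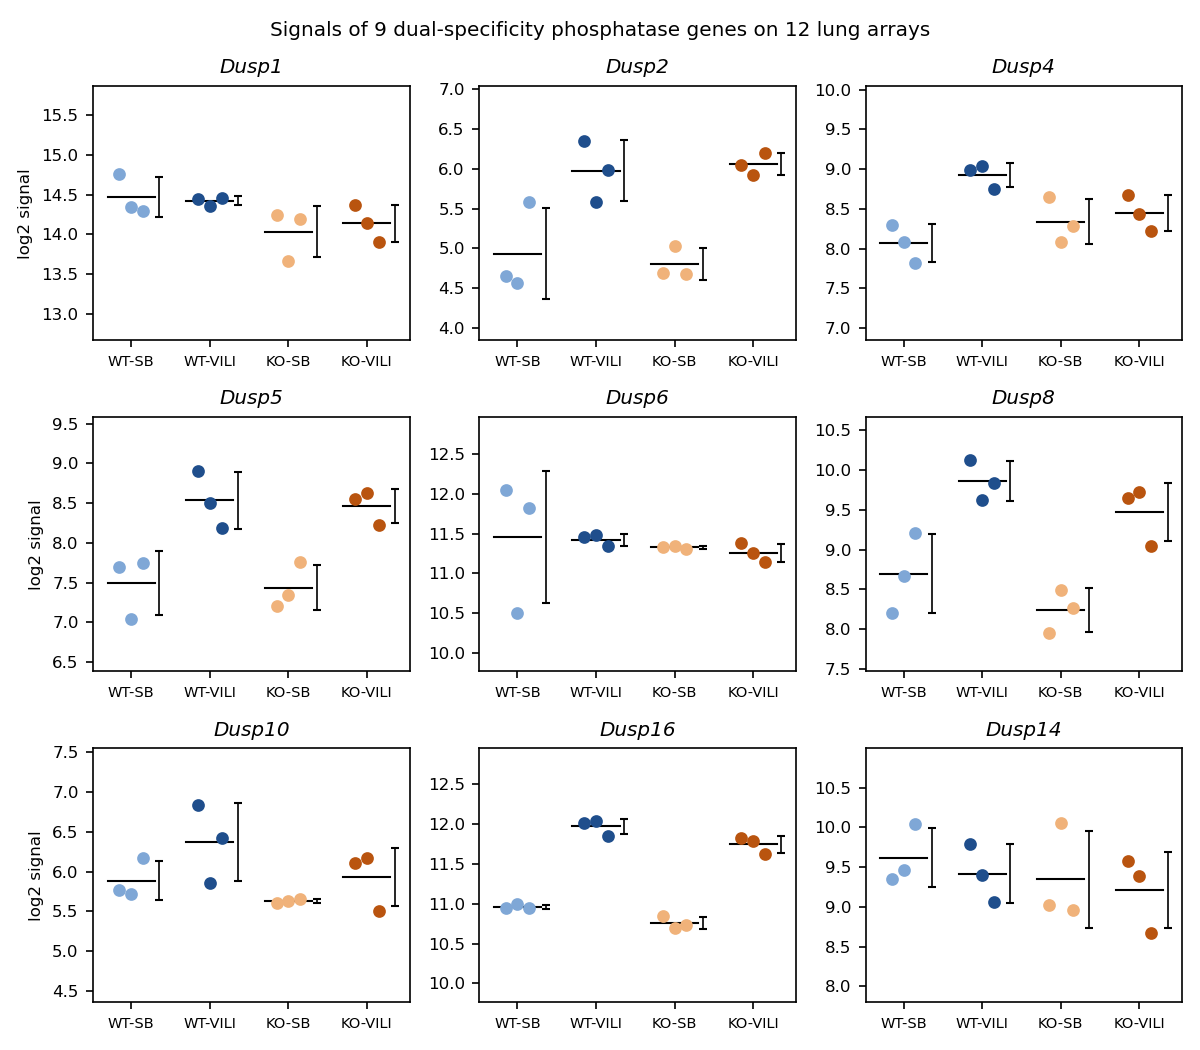
Log2 signal of the lead probe set of each gene on all 12 arrays (points), with the group mean as a line and the SD as a bar beside it, and vertical axes of equal length. Dusp5 and Dusp16 separate all VILI arrays from all SB arrays, the 3 WT-VILI arrays of Dusp4 are its highest, and Dusp6 spreads from 10.50 to 12.04 within WT-SB alone. The share of all genes that separate all VILI from all SB arrays was not counted, nor that with the 3 WT-VILI arrays highest.

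**Figure D3:**
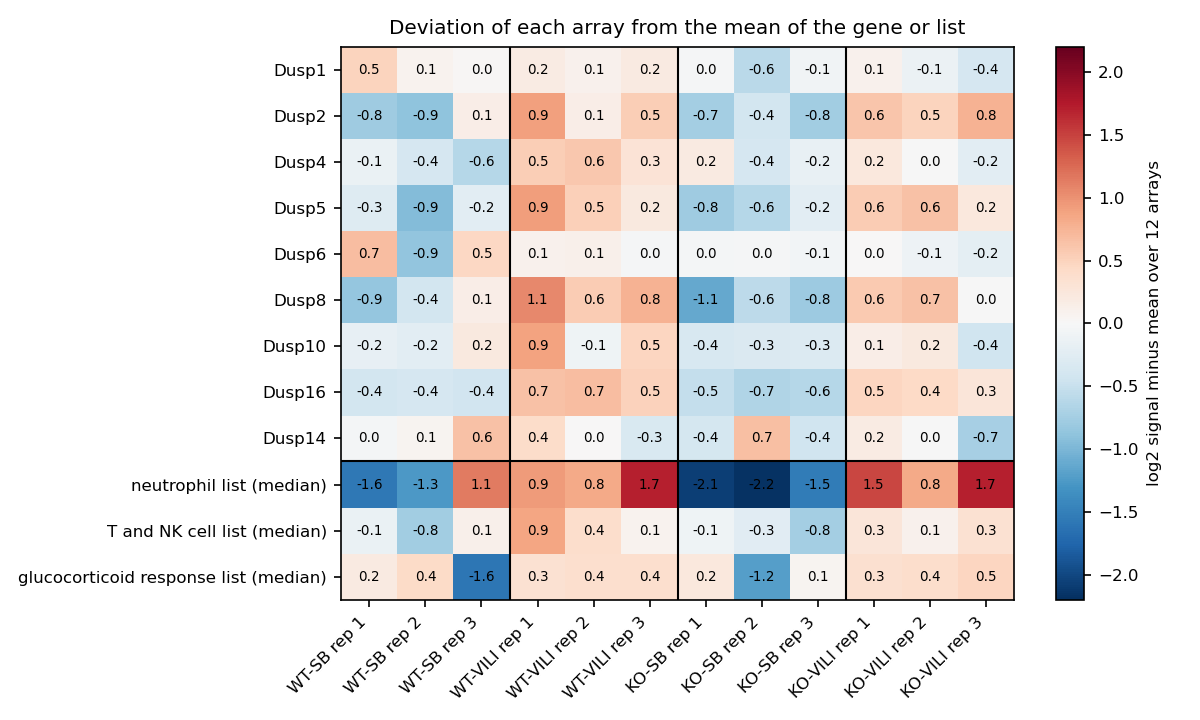
Deviation of each array from the mean over 12 arrays (log2 units, red above and blue below), for the 9 genes and for the medians of 3 marker lists, with arrays in columns by group. WT-SB replicate 3 and KO-SB replicate 2 stand out at -1.60 and -1.21 in the glucocorticoid response list and at the highest Dusp14 signals.

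Taking both genotypes as 1 comparison of 6 arrays with 6, 5 of the 9 members rose, against 14.1% of all genes that rose and 36.7% that changed. The mean differences were 1.20 for Dusp8, 1.15 for Dusp2, 1.03 for Dusp5, 1.00 for Dusp16 and 0.48 for Dusp4, with limma adjusted p of 0.00113, 0.00146, 0.00139, 7.90e-06 and 0.0140. Neighbours among the first 4 in this order differ by less than the standard errors of Dusp8 (0.19), Dusp2 (0.19) and Dusp5 (0.17). The member median was 0.48 and that of all genes -0.05. With limma and an unadjusted p under 0.05, 6 of the 9 members were below that threshold, the sixth being Dusp10, as were 47.0% of all genes.

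The genotypes were next compared under each condition. Under SB none of the 9 members passed between KO and WT by limma, against 0.0487% of all genes (0.0162% higher and 0.0325% lower in KO), and 2 had an unadjusted p under 0.05, as did 3.74% of all genes. Those were Dusp1, at -0.44 ± 0.18 (limma unadjusted p = 0.0357, adjusted p = 1.00), and Dusp16, at -0.20 ± 0.09 (0.0384 and 1.00). Every KO-SB array was below every WT-SB array for Dusp1, Dusp10 and Dusp16, which was the case for 2.31% of all genes. Without KO-SB replicate 2, Dusp1 differed by -0.25.

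Under VILI none of the 9 passed by limma, against 0.106% of all genes (0.0487% higher and 0.0569% lower in KO), and 2 had an unadjusted p under 0.05, as did 8.69% of all genes. Dusp4 differed by -0.48 ± 0.18 (limma unadjusted p = 0.0220, adjusted p = 0.496), and Dusp16 differed by -0.22 ± 0.09 (0.0259 and 0.516). For both genes every KO-VILI array was below every WT-VILI array, as for 9.33% of all genes. In each condition 8 of the 9 values were below 0. The exceptions were Dusp4 under SB (0.27) and Dusp2 under VILI (0.08). Of all genes, 56.4% were above 0 under SB and 53.0% under VILI. The 9 values come from the same arrays and are not independent of each other. The member medians were -0.20 under SB and -0.22 under VILI, where those of all genes were 0.02 and 0.01.

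For the members other than Dusp4, the difference of responses lay between -0.19 for Dusp10 and 0.22 for Dusp2, with limma adjusted p of 0.989 or more. The 95% intervals were narrowest for Dusp16, given above, and ran from -0.62 to 1.06 for Dusp2, from -0.76 to 0.74 for Dusp5 and from -0.77 to 0.90 for Dusp8. A p that misses the threshold does not show that these responses were alike in both genotypes.

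The genes whose array-by-array pattern was most like that of a member were found by the root mean square (RMS) difference, over 12 arrays, between their mean-centred log2 signals. Dusp16 was closest to Mafk (0.131), Snx18 (0.132) and Sco1 (0.134), against an RMS of 0.516 for Dusp16 itself. Dusp5, with an RMS of 0.581, was closest to the EGF receptor ligand gene Hbegf (0.183), Parp16 (0.193) and Phlda1 (0.220). Dusp4 (RMS 0.364) was closest to the sphingosine 1-phosphate receptor gene S1pr1 (0.167), Tmem87b (0.171) and Rcl1 (0.174). Dusp2 (RMS 0.649) was closest to Satb1 (0.184), Evi2a (0.218) and 6330407A03Rik (0.224). Dusp8 (RMS 0.702), whose window held no CArG box, was closest to Smim3 (0.238), Cdkn2b (0.246) and Srf (0.255). These genes were picked for their likeness, and the measure has no test.

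The other MAPK pathway genes were taken from a list of 122, of which 112 are named on the array and 100 were tested. In the mean of both genotypes, 37 of the 100 rose and 14 fell, against 14.1% of all genes that rose and 22.6% that fell, with a median of 0.20. In WT alone 20 rose and 8 fell, and in KO 28 rose and 9 fell. None passed between the genotypes under SB, under VILI or in the difference of responses by limma. The differences named below are means over both genotypes, and those said to rise or fall have a limma adjusted p under 0.05.

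Of 15 MAP3 kinases, the first tier, 3 rose and 2 fell. Map3k8 (0.88), which drives ERK in inflammatory signalling, Map3k9 (0.49) and Map3k7 (0.33), which encodes TAK1, rose, and Map3k11 (-0.50) and Map3k2 (-0.37) fell. Of 6 MAP2 kinases, Map2k3 (0.73), which activates p38, and Map2k4 (0.36), which activates JNK and p38, rose. Of 11 MAP kinases, the substrates of the described phosphatases, only Mapk6 rose (1.14), an atypical kinase that encodes ERK3, and Mapk12 (-0.76), Nlk (-0.36) and Mapk11 (-0.34) fell. The JNK gene Mapk8 and the p38 gene Mapk14 differed by 0.04 and -0.08 and did not pass, and were named after their values were seen.

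Of 7 kinases that MAPKs activate, 3 rose and 3 fell. Mapkapk2 (0.80), the p38 target kinase, Rps6ka3 (0.36) and Mapkapk5 (0.25) rose, and Rps6ka5 (-1.31), which encodes MSK1, Mknk1 (-0.50) and Mknk2 (-0.27) fell. Of 5 scaffolds, Mapk8ip1 (1.05), which binds the JNK module, and Iqgap1 (0.30) rose. Of 7 ETS and serum response factors, Srf (1.28) and Elk4 (0.32), which encodes a partner of the Srf product, rose. The Srf product binds CArG boxes, but its binding to those printed for Dusp5 was not tested.

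Immediate early genes are the first to be transcribed when MAPKs are active. Of 20 immediate early targets, 10 rose and 2 fell. The AP-1 genes Fosl1 (3.46), Fosl2 (1.21) and Junb (1.18) rose, as did Myc (2.07), Maff (1.72) and Klf6 (0.37), while the flow-sensitive factor Klf2 (-2.25) and Klf4 (-0.60) fell. Those that did not pass were Fos (0.22), Jun (-0.05), Egr1 (0.94), Egr3 (1.88), Ier2 (0.28), Ier5 (0.08), Atf3 (1.37) and Nr4a1 (0.56). They were named after their values were seen.

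Of 5 Sprouty and Spred genes, which damp receptor tyrosine kinase signals upstream of ERK, Spry4 (1.60), Spry1 (0.72), Spred2 (0.54) and Spry2 (0.45) rose and none fell. Of 13 other induced feedback genes, 8 rose and 1 fell. They include the cytokine signal inhibitor Socs3 (1.89), the stress genes Gadd45g (2.16), Gadd45a (1.21) and Gadd45b (0.56), Phlda1 (0.96) and Lrrfip1 (0.60), while Rasa1 (-0.29), a Ras GTPase-activating protein gene, fell.

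Of 10 other dual-specificity phosphatases tested, 1 rose and 3 fell. Dusp3 (0.34), whose product acts on ERK and JNK, rose. Dusp18 (-1.06), Dusp19 (-0.99) and Dusp12 (-0.29) fell. The tyrosine phosphatase gene Ptprr, whose product inactivates ERK, rose by 0.39.

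**Figure D4:**
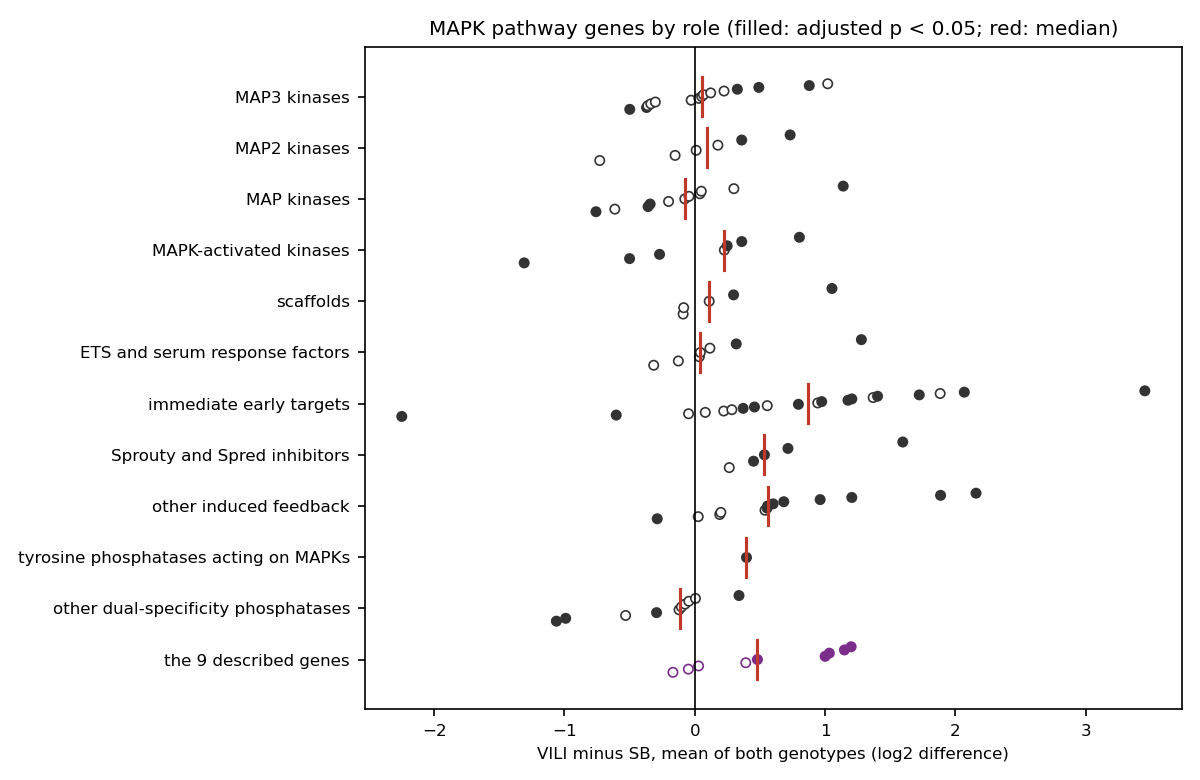
Log2 difference between VILI and SB, as the mean of both genotypes, for the tested MAPK pathway genes by role (one point a gene, filled where the limma adjusted p is under 0.05, red line at the median), with the 9 described phosphatases in the lowest row. Medians lie at 0.87 for immediate early targets, 0.54 for Sprouty and Spred inhibitors, 0.48 for the 9 genes and -0.11 for other dual-specificity phosphatases.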

How the data were processed

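The deposited table of the authors holds log2 signals of 45037 probe sets on 12 arrays. The submitters' processing notes name MAS5 and GCRMA without their roles or versions, and array medians of 4.94 to 5.04 show that the arrays were normalized to each other. Of these probe sets, 34945 had 1 gene symbol in the platform annotation, 932 had several and 9160 had none. Probe sets with a mean under the 40th percentile (3.06) or without exactly 1 symbol were left out, and the probe set with the highest mean stood for each of 12309 genes.

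The model, lmFit and eBayes of limma 3.58.1 under R 4.3.3, fitted 4 group means to all 12 arrays, with Benjamini-Hochberg adjustment over all genes of a comparison. Values for the other probe sets of a member past the filter are from a separate fit of all 22443 such probe sets, adjusted over these. The median standard error was 0.148 for a difference of 2 groups and 0.209 for a difference of responses, as limited by 3 arrays a group. The fit was tested on simulated data. Members, gene lists and tests were chosen with earlier results of these data known. Pathway genes said to rise or fall are up to 6 for each role and direction with the smallest p in the mean of both genotypes. Alternatives were the filter, scaling, replicate block, groups in the fit, variance model, array weights, choice of probe set and leaving out arrays.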

Additional observations from a re-analysis of the deposited data

How the results depend on the processing

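The rises of Dusp4 and Dusp16 in WT and of Dusp2, Dusp8 and Dusp16 in KO passed in every fit that left out 1 array, and those of all 5 genes in the mean of both genotypes. With 1 array left out, or WT-SB replicate 3 and KO-SB replicate 2 together (added after seeing the data), 2 to 5 members were called in WT. All-gene counts were 933 to 2204 in WT, 1232 to 3301 in KO, 0 to 19 for KO against WT under SB, 2 to 28 under VILI and 0 to 11 for the difference of responses. Pathway counts were 18 to 29 in WT and 18 to 41 in KO. The cause of these shifts was not tested.

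In the same fits, log2 differences that were not called changed sign. VILI minus SB in WT ran from -0.13 to 0.10 for Dusp1, -0.51 to 0.26 for Dusp6 and -0.39 to 0.012 for Dusp14. In KO it ran from -0.078 to 0.22 for Dusp1, -0.025 to 0.26 for Dusp4 and -0.32 to 0.22 for Dusp14. The mean of both genotypes ran from -0.11 to 0.10 for Dusp1, -0.29 to 0.10 for Dusp6 and -0.26 to 0.12 for Dusp14. KO minus WT under SB ran from -0.32 to 0.19 for Dusp2, -0.29 to 0.11 for Dusp5 and -0.61 to 0.16 for Dusp6, and under VILI from -0.11 to 0.27 for Dusp2, -0.24 to 0.12 for Dusp5 and -0.39 to 0.066 for Dusp14. The difference of responses ran from -0.032 to 0.27 for Dusp1, -0.11 to 0.41 for Dusp2, -0.18 to 0.22 for Dusp5, -0.33 to 0.44 for Dusp6, -0.19 to 0.31 for Dusp8, -0.45 to 0.039 for Dusp10, -0.077 to 0.041 for Dusp16 and -0.15 to 0.42 for Dusp14.

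With only the 2 groups of a comparison in the fit, 2 members, 845 genes and 17 pathway genes were called in WT, where Dusp2, Dusp5 and Dusp8 had limma adjusted p of 0.118, 0.0716 and 0.0622. KO against WT then had 0 genes under SB and 1 pathway gene under VILI. Array weights, whose estimate did not fully converge, gave 4244 genes and 43 pathway genes in WT, 5522 and 58 in KO, 102 and 2 for KO against WT under SB, 852 and 6 under VILI, and 171 and 3 for the difference of responses. Under VILI 1 member was then called, Dusp4 (-0.50, limma adjusted p = 0.0250), and Dusp10 passed in the mean (0.52, limma adjusted p = 0.0113). The weights turned Dusp14 to 0.042 in WT, 0.27 in KO and 0.16 in the mean, Dusp1 to -0.13 in the mean, Dusp2 to 0.024 under SB and -0.0011 under VILI, and Dusp5 to 0.040 under VILI. They turned the difference of responses to -0.025 for Dusp2, 0.040 for Dusp5, 0.33 for Dusp6, -0.081 for Dusp8 and 0.0093 for Dusp16. Equal array medians gave 0.0023 for Dusp1 and 0.019 for Dusp6 in WT, and the probe set of largest variance gave 0.066 for Dusp16 in the difference of responses. Without a filter, 6 genes were called for KO against WT under VILI and 1 in the difference of responses, and Dusp2 lost its WT call (limma adjusted p = 0.0517). A filter at the 60th percentile gave 8 under VILI, and all probe sets gave 7191 calls in the mean.

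Samples that share a replicate number did not deviate together, since 4 of 18 same-number pairs had a correlation over 0.1, so the numbers were not used as pairs. A replicate block called 5 members in WT, 4 in KO and 5 in the mean, and gave 0 genes for KO against WT under SB and 2 under VILI.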
